A study of Mus musculus with 8 samples.

Results

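The 37 genes described here are made by oligodendrocytes, the cells that wrap axons of the central nervous system in myelin, or by the progenitors they come from. They were chosen by name, from progenitor genes to genes of mature myelin, by a rule that sets no threshold on a measured value, although earlier results of these data were known when the names were listed. All 37 were found among the 55291 genes of the count table, and all 37 were among the 19470 genes with enough counts to be tested. RNA-seq was performed on the whole lumbar spinal cord of 8 male mice, 4 per genotype. Every mouse carried the SOD1G93A transgene, a mutant human *SOD1* gene that causes motor neuron disease in mice, on a C57BL/6J background. In every mouse a tamoxifen-inducible Cre recombinase (Cre-ERT2) replaced 1 copy of *Cx3cr1*, a gene expressed in microglia, so that all mice had a single working copy of it. Of these SOD1G93A *Cx3cr1* Cre/+ mice, 4 were *Ager* fl/fl and had loxP sites in both copies of *Ager*, the gene of RAGE (a receptor for advanced glycation end products). They are called *Ager*-deleted here, and the other 4, *Ager* +/+, are the Cre-expressing controls. Per the labels, all 8 mice were given 5 injections of 0.2 µg tamoxifen at 12 weeks and the tissue was taken at 120 days. The text of the study instead places the sequenced cords at the humane endpoint of the disease and tamoxifen at a somewhat later age, so the disease stage of these cords is uncertain. Mice without the *SOD1* transgene were not analysed here, so the effect of the disease itself on these genes could not be measured. The question asked was whether loss of *Ager* from *Cx3cr1*-expressing cells was accompanied by other levels of oligodendrocyte and myelin genes.

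Oligodendrocyte progenitors divide and migrate through the cord, carry the growth factor receptor PDGFRA and the proteoglycan NG2, and lose both as they differentiate. Differentiating cells pass through a short premyelinating stage and then switch on the genes of compact myelin, a stack of membrane rich in lipid and in a small set of proteins. In SOD1G93A mice, degeneration of oligodendrocytes and renewed division of their progenitors are known features of the spinal cord.

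The libraries held 31148047 to 40324897 counts per mouse, and 3 counts, the floor used here, correspond to at most 0.0963 counts per 1000000 counts of a library (CPM). The 37 genes were far above it, with 957 to 507591 counts per gene and mouse and a median of 7312.5. The *Ager*-deleted mice are always given in the order E1776, E5231, E5248 and E5568 and the controls in the order E5386, E5642, E6578 and E6732. *Ager* had 0.889, 1.51, 1.02 and 1.34 CPM in the first genotype, against 1.53, 2.22, 2.18 and 2.41 CPM in the second. The genotypes did not overlap for *Ager*, and the log2 fold change of *Ager*-deleted over control was -0.81 ± 0.22 (SE) (edgeR exact test, adjusted p = 0.252). CPM values were normalised between libraries with TMM factors, edgeR's trimmed means of M values. Libraries stood apart in genes of tissues other than the cord. The control E5386 had the lowest level of 12 of 14 Schwann cell genes and of 12 of 12 meningeal fibroblast genes, the controls E5386 and E5642 carried skeletal muscle genes at a summed 1190 and 1787 CPM against 70.1 to 97.9 CPM in the other 6 libraries, and E6732 had the highest level of 14 of 14 liver genes.

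Sequence upstream of the genes was examined in the RefSeq promoter windows of GRCm38.p6, which run from 250 bases before to 50 bases after a gene's start and were given for 27 of the 37 genes. A pair of motifs was searched on both strands: ACAAAG, a core recognised by SOX factors such as SOX10, and CTGGCAC, the core bound by MYRF, the factor that drives myelin genes in differentiating oligodendrocytes. The letters ACAAAG were in the windows of 9 of 27 genes (33.3%) and of 21.0% of the 27025 genes with a window. They were found at *Mobp*, *Tspan2*, *Mag*, *Opalin*, *Plekhb1*, *Cnp*, *Gjb1*, *Apod* and *Klk6*. The letters CTGGCAC were in the windows of 4 of 27 genes (14.8%), *Mag*, *Opalin*, *Cnp* and *Hapln2*, and of 5.73% of all genes with a window. A match is a run of letters and not a measured binding site, and no binding was measured in these mice. The windows of *Cnp* and *Opalin* are shown as examples that hold both motifs. *Mag* is named for both motifs as well, but its sequence is not shown. Those of *Pdgfra* and *Aspa* are shown because these were the genes whose levels did not overlap between genotypes. The window of *Cnp* is chr11:100574689-100574988 on the plus strand, that of *Opalin* chr19:41077064-41077363 on the minus strand, that of *Pdgfra* chr5:75152001-75152300 on the plus strand and that of *Aspa* chr11:73324588-73324887 on the minus strand. Each is written 5′ to 3′ on the strand of the gene, with capitals marking the motifs. In *Opalin*, GTGCCAG is CTGGCAC read on the other strand, and neither motif was in the windows of *Pdgfra* and *Aspa*. The RefSeq start used for *Aspa* lies downstream of the gene's 5′ end in GENCODE.
Cnp: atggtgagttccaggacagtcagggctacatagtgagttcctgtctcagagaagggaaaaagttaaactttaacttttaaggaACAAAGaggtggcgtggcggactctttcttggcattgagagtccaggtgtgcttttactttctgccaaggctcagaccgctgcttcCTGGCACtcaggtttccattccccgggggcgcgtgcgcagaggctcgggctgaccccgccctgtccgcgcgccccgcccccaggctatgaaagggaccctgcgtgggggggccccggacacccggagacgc
Opalin: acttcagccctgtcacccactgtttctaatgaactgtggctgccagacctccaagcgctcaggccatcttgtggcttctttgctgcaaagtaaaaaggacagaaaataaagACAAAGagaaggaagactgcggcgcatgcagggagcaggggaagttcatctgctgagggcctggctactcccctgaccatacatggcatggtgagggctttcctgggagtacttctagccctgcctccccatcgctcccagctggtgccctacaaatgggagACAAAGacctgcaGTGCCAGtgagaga
Pdgfra: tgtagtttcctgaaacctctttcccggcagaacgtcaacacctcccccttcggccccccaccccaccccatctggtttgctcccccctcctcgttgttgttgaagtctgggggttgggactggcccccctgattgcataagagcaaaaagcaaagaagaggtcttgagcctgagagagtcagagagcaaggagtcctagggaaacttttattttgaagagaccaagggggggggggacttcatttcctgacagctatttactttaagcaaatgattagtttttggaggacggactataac
Aspa: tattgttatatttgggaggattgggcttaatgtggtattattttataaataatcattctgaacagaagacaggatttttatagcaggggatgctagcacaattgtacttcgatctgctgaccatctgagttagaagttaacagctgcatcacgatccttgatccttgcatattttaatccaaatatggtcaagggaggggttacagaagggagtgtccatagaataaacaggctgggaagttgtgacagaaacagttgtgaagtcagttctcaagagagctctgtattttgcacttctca

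Genes of compact myelin were among the most abundant transcripts of the cord. *Mbp*, which encodes myelin basic protein, had a mean level over the 8 mice of 1437 CPM per kilobase of exon and ranked 15th of 19079 genes with a known length. It was followed on the same scale by *Apod* (1097), *Trf* (716), *Mobp* (389.8) and *Plekhb1* (326). At the other end stood the progenitor genes, with 7.11 CPM per kilobase for *Pdgfra*, 5.05 for *Vcan* and 3.34 for *Cspg4*, which ranked 10031st. Together the 37 genes took 2.59% to 3.13% of all CPM in a mouse. Oligodendrocyte markers were therefore present in every library. Several of the genes are also expressed by other cells. *Mbp*, *Mag*, *Mal* and *Gjb1* are expressed by Schwann cells, and *Pdgfra*, *Vcan* and *Apod* by fibroblasts. *Cspg4* is expressed by pericytes, *Enpp2* and *Trf* by choroid plexus, and *Trf* by liver.

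None of the 37 oligodendrocyte and myelin genes passed edgeR's exact test between genotypes. Of the 37 genes, 0 had an adjusted p under 0.05 in edgeR's exact test, against 14 of all 19470 genes tested (0.0719%), and 0 had one in edgeR's quasi-likelihood test, against 1 of all genes (0.00514%). The count was also 0 when the exact test took common and then tagwise dispersions (0.401% of all genes) and in DESeq2 (0.129%). At an unadjusted p under 0.05, 4 of the 37 genes (10.8%) were counted in the exact test, *Gpr17* with a higher and *Pdgfra*, *Aspa* and *Apod* with a lower level in *Ager*-deleted mice, where the share over all genes was 4.26% (1.2% higher and 3.06% lower). The same count in the quasi-likelihood test was 4, with *Tspan2* in place of *Apod*, beside 6.71% of all genes. The genotypes did not overlap for 2 of 37 genes (5.41%), *Pdgfra* and *Aspa*, both lower in the *Ager*-deleted mice, beside 3.88% of all genes in either direction, 1.91% lower and 1.97% higher.

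The fold changes lay close to 0 on both sides. The log2 fold change was above 0 for 22 of the 37 genes (59.5%) and for 52.0% of all genes tested. Its median was 0.01 over the 37 genes and 0.01 over all genes, and it ranged from -0.58 for *Apod* to 0.42 for *Gpr17*, with 33 of 37 values smaller than 0.2 in size. The 95% interval of the fold change lay within 1.5-fold in either direction for 35 of 37 genes (72.0% of all genes), within 1.25-fold for 15 (42.6% of all genes) and within 2-fold for 36 (90.7% of all genes), *Apod* being the exception. The standard error had a median of 0.10 on the log2 scale. A p that misses the threshold does not show that levels were equal. In bulk tissue, fewer cells of a type and less RNA per cell cannot be told apart.

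**Figure D1:**
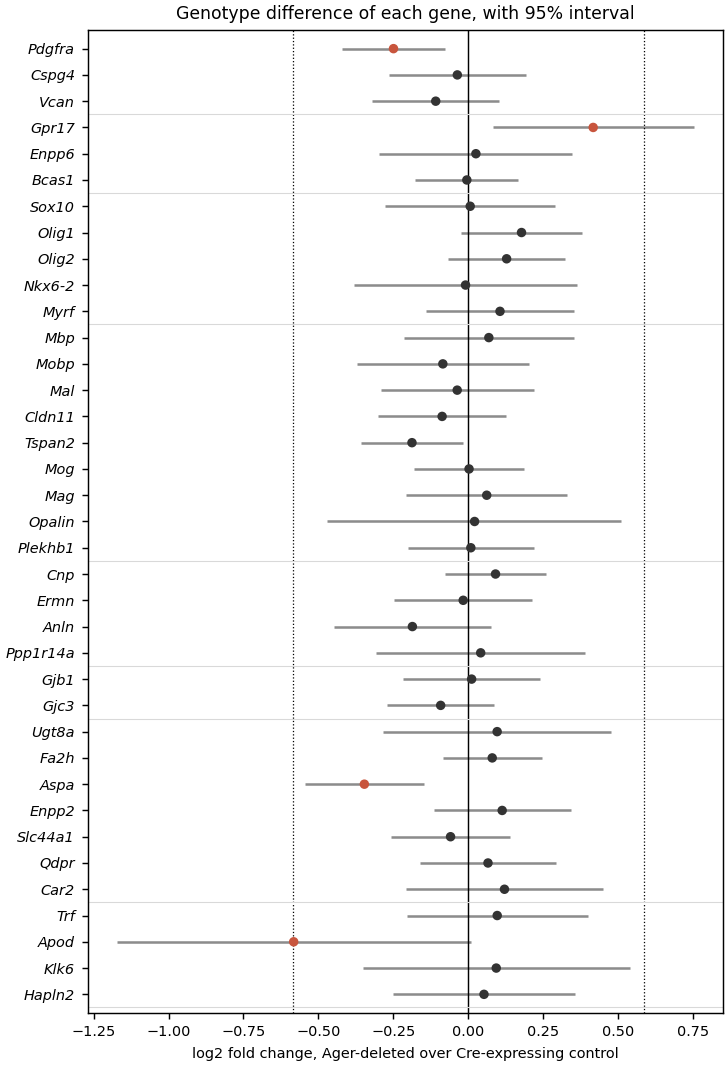
Log2 fold change (*Ager*-deleted over Cre-expressing control, n = 4 each) of the 37 genes in order of their roles, with points for the estimate of edgeR's exact test and bars for the 95% interval of the quasi-likelihood fit. Dotted lines mark 1.5-fold in either direction and red points an unadjusted p under 0.05 in the exact test. The 4 red points are *Pdgfra*, *Gpr17*, *Aspa* and *Apod*, and the other genes lie between -0.19 and 0.18.

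The 3 progenitor genes had log2 fold changes below 0, with a median of -0.11. *Pdgfra*, the receptor for platelet-derived growth factor A that keeps progenitors dividing, lies at chr5:75152292-75198215 on the plus strand. It was at 70.0, 66.9, 64.5 and 59.1 CPM in *Ager*-deleted mice and 72.4, 81.9, 84.2 and 71.3 CPM in controls. All 4 *Ager*-deleted mice were below all 4 controls, although E1776 at 70.0 CPM and E6732 at 71.3 CPM were close together. The means were 65.1 ± 4.59 against 77.4 ± 6.52 CPM (mean ± SD, n = 4 each), and the log2 fold change was -0.25 ± 0.08 (SE) with a 95% interval from -0.42 to -0.08. In edgeR's exact test the p was 0.0108 and the adjusted p 0.757, and the exact permutation test gave 0.0286, the smallest two-sided p that 4 against 4 mice can give. *Vcan*, a large matrix proteoglycan made by progenitors, was at 84.2, 70.2, 61.5 and 65.3 CPM in *Ager*-deleted mice and 75.2, 81.4, 76.3 and 70.4 CPM in controls. Its genotypes overlapped, with E1776 highest of all 8 mice and the other 3 *Ager*-deleted mice below every control, and its log2 fold change was -0.11 ± 0.09 (SE). *Cspg4*, which encodes NG2, was at 33.7 to 47.9 CPM over the 8 mice with a log2 fold change of -0.04 ± 0.10 (SE), and here too E1776 was highest.

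Among the 3 genes of differentiating cells, *Gpr17* stood apart from *Enpp6* and *Bcas1*. *Gpr17* encodes a receptor that is present on committed progenitors and early premyelinating cells and is switched off before myelination. It was at 118, 95.8, 86.3 and 68.3 CPM in *Ager*-deleted mice and 77.9, 67.4, 57.4 and 73.1 CPM in controls. E1776, E5231 and E5248 were above all controls, whereas E5568 lay within the range of the controls, so the genotypes overlapped. The means were 92.0 ± 20.5 against 68.9 ± 8.81 CPM (mean ± SD, n = 4 each) and the log2 fold change was 0.42 ± 0.15 (SE), with a 95% interval from 0.08 to 0.75. In edgeR's exact test the p was 0.0106 and the adjusted p 0.754, and the exact permutation test gave p = 0.0857. Without E1776 the log2 fold change was 0.28, the lowest over all omissions of a single mouse, and the highest was 0.54. Exons of *Gpr17* overlap those of *Lims2* on the other strand, and whether counting used the strand is not given in the sources used here. *Lims2* was at 16.7 to 18.4 CPM in the *Ager*-deleted mice and 12.6 to 17.8 CPM in the controls, with a log2 fold change of 0.17 ± 0.11 (SE). Genes on the other strand also overlap exons of *Pdgfra*, *Bcas1*, *Olig1*, *Nkx6-2*, *Tspan2*, *Cnp*, *Ermn*, *Enpp2*, *Slc44a1* and *Qdpr*. On their own strand, *Mobp* and *Trf* share exon sequence with a predicted gene. *Bcas1*, a marker of newly formed myelinating cells, was at 659, 651, 617 and 602 CPM in *Ager*-deleted mice and 665, 607, 579 and 686 CPM in controls, with every *Ager*-deleted mouse inside the range of the controls. It was the steadiest of the 37 genes, with a coefficient of variation of 5.84% over 8 mice. *Enpp6*, a choline phosphodiesterase of new oligodendrocytes, was at 35.5 to 55.7 CPM with a log2 fold change of 0.03 ± 0.14 (SE).

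*Gpr17* and *Pdgfra* had log2 fold changes of opposite sign in the same libraries. The ratio of *Gpr17* to *Pdgfra* CPM was 1.68, 1.43, 1.34 and 1.16 in the *Ager*-deleted mice and 1.07, 0.824, 0.682 and 1.02 in the controls. All 4 ratios of the *Ager*-deleted mice were above all 4 of the controls. The ratio was formed after both genes' values had been seen, and no test was made of it. *Pdgfra* alone already did not overlap between the genotypes, so the ratio adds no separate support.

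**Figure D2:**
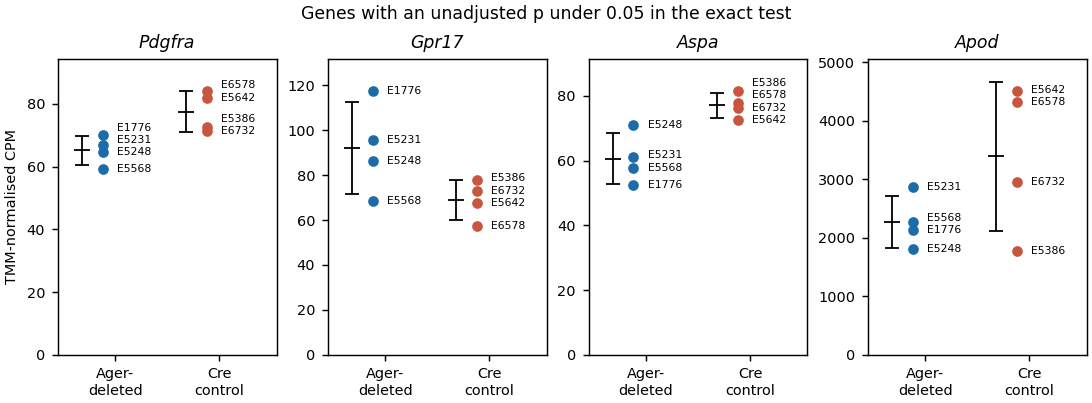
TMM-normalised CPM of *Pdgfra*, *Gpr17*, *Aspa* and *Apod* in each mouse, named by its ID, with bars for the mean ± SD of 4 mice per genotype. *Pdgfra* and *Aspa* do not overlap between genotypes, E5568 lies within the controls for *Gpr17*, and the control E5386 is the lowest of all 8 mice for *Apod*.

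The 5 transcription factors had a median log2 fold change of 0.11, and none had an unadjusted p under 0.05 in the exact test. *Olig1*, which with *Olig2* specifies the lineage, was at 209, 199.6, 169 and 191 CPM in *Ager*-deleted mice and 178, 144, 179 and 179 CPM in controls. The genotypes overlapped through E5248, the other 3 *Ager*-deleted mice were above all controls, and E5642 was the lowest mouse. Its log2 fold change was 0.18 ± 0.09 (SE) with an interval from -0.02 to 0.38. *Sox10*, required at every stage from commitment to myelination, was at 152, 166, 118 and 116 CPM in *Ager*-deleted mice and 154, 123, 124 and 149 CPM in controls. E1776 and E5231 were high and E5248 and E5568 low among the *Ager*-deleted mice, a spread that covered that of the controls, and the log2 fold change was 0.01 ± 0.13 (SE). *Olig2* (0.13 ± 0.09 (SE)) and *Myrf* (0.11 ± 0.11 (SE)) had positive log2 fold changes whose intervals included 0. *Nkx6-2*, a homeodomain factor of late differentiation, had one of -0.01 ± 0.17 (SE) and ranged from 27.0 CPM in E5248 to 50.3 CPM in E5231, both *Ager*-deleted.

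The 9 genes of the myelin membrane had a median log2 fold change of 0.00, and all 9 values lay between -0.19 and 0.07. *Mbp*, the protein that holds the cytoplasmic faces of compact myelin together, was at 12778, 13683, 11082 and 12275 CPM in *Ager*-deleted mice and 12414, 11514, 12538 and 11048 CPM in controls. The genotypes overlapped, with the highest mouse 1.24 times the lowest, and the log2 fold change was 0.07 ± 0.13 (SE) with an interval from -0.22 to 0.35. *Mobp*, a second basic protein of compact myelin, was at 2904, 2409, 2446 and 2604 CPM in *Ager*-deleted mice and 2757, 2794, 3239 and 2204 CPM in controls. Controls held both the highest mouse, E6578, and the lowest, E6732, and the log2 fold change was -0.09 ± 0.13 (SE). *Tspan2*, a tetraspanin of the myelin sheath, was at 264 to 302 CPM in the *Ager*-deleted mice and 299 to 355 CPM in the controls, with E5248 inside the range of the controls. Its log2 fold change was -0.19 ± 0.08 (SE), with p = 0.0503 and adjusted p = 1 in the edgeR exact test. *Mag*, which faces the axon, had a log2 fold change of 0.06 ± 0.12 (SE), and *Mog*, which lies on the outer face of the sheath, one of 0.00 ± 0.08 (SE). *Cldn11*, which forms the tight junctions between its layers, had one of -0.09 ± 0.10 (SE). *Mal*, a raft proteolipid, had -0.04 ± 0.11 (SE), and *Plekhb1* had 0.01 ± 0.09 (SE). *Opalin*, a membrane glycoprotein of mature oligodendrocytes, had one of 0.02 ± 0.22 (SE) and the widest spread of the 9, from 38.7 CPM in E5642 to 82.4 CPM in E6732, both controls.

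The 4 genes of the myelin cytoskeleton and cytoplasm had a median log2 fold change of 0.01. *Cnp*, whose protein keeps cytoplasmic channels open in the sheath, was at 887, 854, 811 and 888 CPM in *Ager*-deleted mice and 793, 748, 825 and 865 CPM in controls. All 8 values lay within 1.19-fold of each other, E5231 and E5248 lay inside the range of the controls, and the log2 fold change was 0.09 ± 0.08 (SE). *Ermn*, an actin-binding protein of the outer sheath, was at 268, 281, 285 and 248 CPM in *Ager*-deleted mice and 325, 230.5, 252 and 288 CPM in controls. Controls held both the highest and the lowest value of *Ermn*, and its log2 fold change was -0.02 ± 0.10 (SE). *Anln*, a septin scaffold that also serves cell division, had a log2 fold change of -0.19 ± 0.12 (SE), and *Ppp1r14a*, an inhibitor of myosin phosphatase, one of 0.04 ± 0.16 (SE). The gap junction genes were *Gjc3*, encoding connexin 29, and *Gjb1*, encoding connexin 32. *Gjc3* was at 125, 99.6, 121 and 101 CPM in *Ager*-deleted mice and 119, 115, 117 and 125 CPM in controls. *Gjb1* was at 77.0, 73.9, 64.8 and 57.4 CPM in *Ager*-deleted mice and 74.9, 62.3, 61.6 and 72.1 CPM in controls. Both overlapped between genotypes, with log2 fold changes of -0.09 ± 0.08 (SE) for *Gjc3* and 0.01 ± 0.10 (SE) for *Gjb1*.

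The 7 genes for lipid and small-molecule enzymes and transporters had a median log2 fold change of 0.08, and *Aspa* lay apart from it. *Aspa* encodes aspartoacylase, which splits N-acetylaspartate made by neurons and yields acetate for myelin lipids, and lies at chr11:73304992-73329596 on the minus strand with no other gene overlapping it. It was at 52.3, 61.2, 71.0 and 57.8 CPM in *Ager*-deleted mice and 81.6, 72.4, 77.8 and 76.3 CPM in controls. All 4 *Ager*-deleted mice were below all 4 controls, with E5248 at 71.0 CPM just under E5642 at 72.4 CPM. The means were 60.6 ± 7.86 against 77.0 ± 3.80 CPM (mean ± SD, n = 4 each), and the log2 fold change was -0.35 ± 0.09 (SE) with an interval from -0.55 to -0.15. *Aspa* had the smallest p of the 37 genes, 0.00141, with adjusted p = 0.28 in the edgeR exact test and 0.705 in its quasi-likelihood counterpart, while the exact permutation test gave 0.0286. Without E5248, the *Ager*-deleted mouse nearest the controls, the log2 fold change was -0.43 (edgeR exact test, adjusted p = 0.0115). Over all omissions of a single mouse it ran from -0.43 to -0.28, and no other omission gave an adjusted p under 0.05. With scaling to library size alone the genotypes overlapped. *Car2*, carbonic anhydrase II of the oligodendrocyte cytoplasm, was at 501, 578, 435 and 429 CPM in *Ager*-deleted mice and 552, 346, 407 and 483 CPM in controls. Its lowest and second highest values were both in controls, and the log2 fold change was 0.12 ± 0.15 (SE). *Qdpr*, which recycles the cofactor tetrahydrobiopterin, was at 293, 315, 272 and 303 CPM in *Ager*-deleted mice and 328, 243, 253 and 307 CPM in controls. The *Ager*-deleted mice lay inside the range of the controls, and the log2 fold change was 0.07 ± 0.10 (SE). *Ugt8a* and *Fa2h*, which make the galactolipids of myelin and their 2-hydroxylated fatty acids, had log2 fold changes of 0.10 ± 0.17 (SE) and 0.08 ± 0.07 (SE). *Enpp2*, the enzyme autotaxin, had 0.11 ± 0.10 (SE), and *Slc44a1*, a choline transporter, -0.06 ± 0.09 (SE).

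Among the 4 secreted proteins, *Trf*, *Klk6* and *Hapln2* had log2 fold changes of 0.10 ± 0.14 (SE), 0.09 ± 0.20 (SE) and 0.05 ± 0.14 (SE), and *Apod* had the log2 fold change of the largest size among the 37 genes. *Apod* encodes apolipoprotein D, a lipid carrier made by myelinating glia and by fibroblasts, and lies at chr16:31296192-31314808 on the minus strand. It was at 2129.9, 2860.2, 1803 and 2261 CPM in *Ager*-deleted mice and 1781, 4511, 4319.7 and 2948 CPM in controls. E5642, E6578 and E6732 were above all *Ager*-deleted mice, and the control E5386 was the lowest of all 8, so the genotypes overlapped. The means were 2264 ± 442 against 3389.8 ± 1279 CPM (mean ± SD, n = 4 each), the log2 fold change was -0.58 ± 0.27 (SE) and its interval ran from -1.17 to 0.01. In edgeR's exact test the p was 0.0304 and the adjusted p 1, and the exact permutation test gave p = 0.2. Without E5386, the control with the least *Apod*, the log2 fold change was -0.80 (edgeR exact test, adjusted p = 0.0215). Over all omissions of a single mouse it ran from -0.80 to -0.42, and no other omission gave an adjusted p under 0.05. *Trf*, which encodes the iron carrier transferrin, was at 2849, 2626, 2108 and 2244 CPM in *Ager*-deleted mice and 2613, 1879.7, 2242 and 2459 CPM in controls. E1776 was highest and E5642 lowest, and the other mice overlapped. *Klk6*, a serine protease of mature oligodendrocytes, was at 176 to 320.3 CPM, and *Hapln2*, a link protein of the nodal matrix, at 117 to 190.2 CPM.

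**Figure D3:**
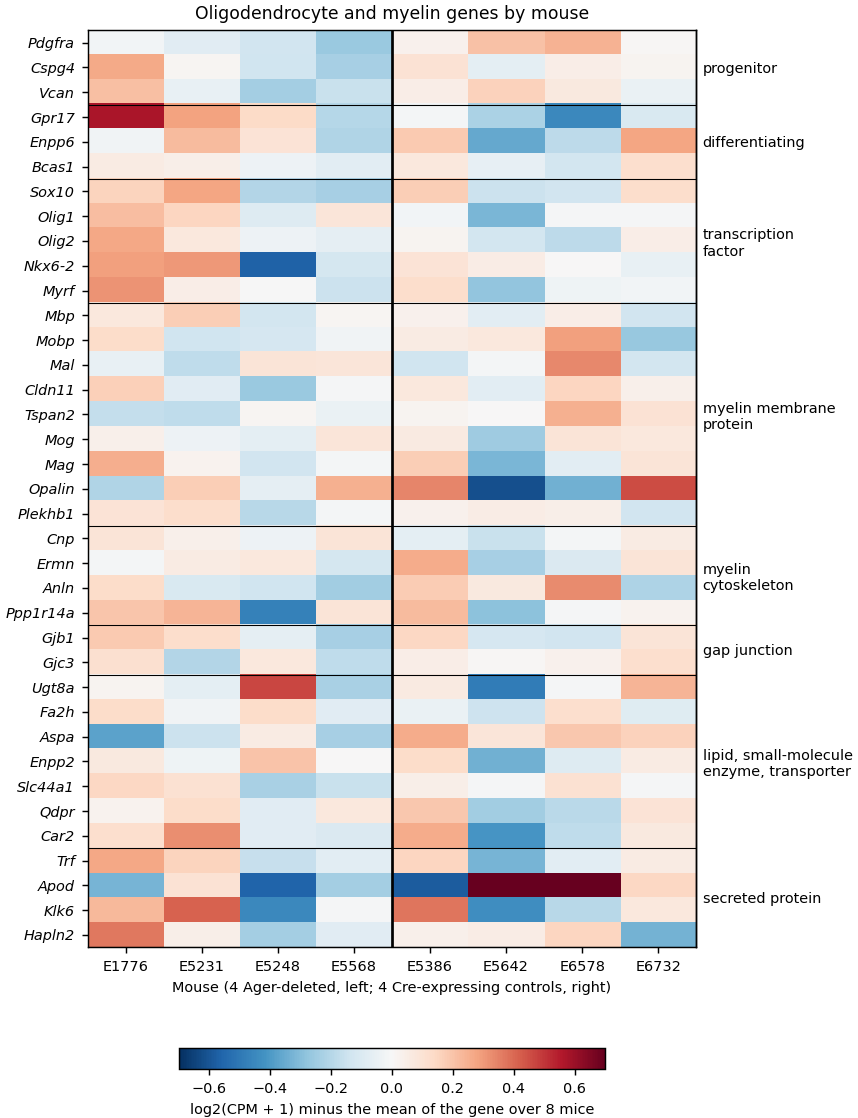
Heat map of the 37 genes (vertical, grouped by role) in the 8 mice (horizontal, 4 *Ager*-deleted left of the line and 4 controls right), coloured by log2(CPM + 1) minus the gene's mean over 8 mice, with colours saturated at 0.7. E1776 is mostly red, with the highest value of 13 genes, and E5642 mostly blue, with the lowest value of 14. The count of genes above their mean is 29 in E1776 and 31 in the control E5386. It is 11 in E5642, and 10 and 9 in the *Ager*-deleted E5248 and E5568.

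The level of the 37 genes as a set differed between mice of the same genotype. The median deviation of the 37 genes from their own means, on the log2 scale, was 0.13 in E1776, 0.04 in E5231, -0.08 in E5248 and -0.08 in E5568, and 0.07 in E5386, -0.13 in E5642, -0.01 in E6578 and 0.05 in E6732. The highest and the lowest mouse thus belonged to different genotypes, and each genotype had mice on both sides of 0. E1776 held the highest value of 13 of the 37 genes, and E5642 the lowest of 14. The progenitor genes did not follow this order, since their median deviation in E5642 was 0.16. The coefficient of variation over 8 mice had a median of 11.8% for the 37 genes and of 7.72% for the 5824 genes with at least the mean CPM of the lowest of the 37. It ran from 5.84% for *Bcas1* to 37.9% for *Apod*, followed by *Opalin* at 24.7%, *Gpr17* at 23.8% and *Klk6* at 22.9%.

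Markers of bordering tissue were set beside the genes that other cells share. The 14 Schwann cell genes summed to 784 to 1664 CPM in the *Ager*-deleted mice and 440 to 1744 CPM in the controls, with *Pmp2* at 0 in 1 mouse. *Prx*, the myelin protein periaxin of Schwann cells, was at 38.8, 48.2, 139 and 80.7 CPM in *Ager*-deleted mice and 1.29, 143, 134 and 106 CPM in controls, with E5386 far below the other 7 mice. In that mouse, *Mbp* was at 12414 CPM, *Mag* at 885 CPM and *Gjb1* at 74.9 CPM, each within the range of the other 7 mice. The 12 meningeal fibroblast genes summed to 211 to 494 CPM in the *Ager*-deleted mice and 82.8 to 665 CPM in the controls. *Dcn*, a proteoglycan of fibroblasts, was at 51.3, 89.1, 143 and 96.7 CPM in *Ager*-deleted mice and 12.3, 276, 193 and 232 CPM in controls. The 3 mice with the most *Apod*, E5642, E6578 and E6732, were the 3 with the highest sum of fibroblast genes, and E5386 was lowest in both. Among the *Ager*-deleted mice this order did not hold, as E5248 had their highest sum of fibroblast genes and their lowest *Apod*. With a score of the fibroblast genes as a covariate the log2 fold change of *Apod* was -0.46, and with one of the Schwann cell genes -0.50. All 12 fibroblast genes themselves had log2 fold changes below 0. The covariate values are given as a description, and the part of these cells in the *Apod* difference was not tested. *Pdgfra* was highest in E6578 and E5642 (84.2 and 81.9 CPM), which were among the 3 mice with the highest sum of fibroblast genes. E5386, with the lowest sum, was at 72.4 CPM, above E6732 at 71.3 CPM. The part of fibroblasts in the *Pdgfra* difference was not tested. Over the 14 alternatives other than leaving out a single mouse, which include both covariates, the log2 fold change of *Pdgfra* was -0.27 to -0.22 and that of *Aspa* -0.36 to -0.32.

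**Figure D4:**
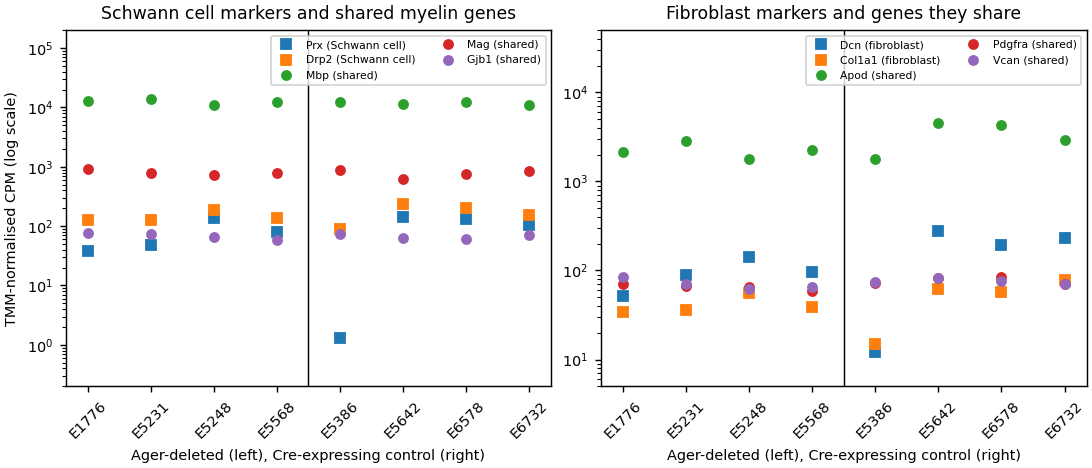
TMM-normalised CPM (log scale) in each mouse of Schwann cell markers (squares, left) and fibroblast markers (squares, right) beside genes of the 37 that those cells share (circles). *Prx* is at 1.29 CPM in the control E5386, where *Mbp*, *Mag* and *Gjb1* lie within the range of the other mice, and *Apod* is highest in 3 controls that are also high in *Dcn*.

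Liver genes summed to 756 CPM in E6732 and to 4.12 to 5.33 CPM in the other 7 mice, and *Alb* was at 452 CPM in E6732. *Trf*, which liver also makes, was at 2459 CPM in E6732, inside the range of the other controls. Choroid plexus genes summed to 15.4 to 26.3 CPM in 7 mice and 52.4 CPM in E6732. Of that sum, the single gene *Ttr* made up 28.1 CPM in E6732, and it was at most 0.520 CPM in the other mice. E6732 had the highest level of 3 of the 8 choroid plexus genes. *Folr1* and *Kl* of that list were at 0.511 and 5.69 CPM there, inside the range of the other mice. Whether choroid plexus was present in E6732 was not tested. *Enpp2* was at 410.3 CPM in E6732, again inside the range of the other controls. The skeletal muscle genes included 3 with an adjusted p under 0.05 in edgeR's exact test, *Myh4*, *Ckm* and *Atp2a1*, all lower in the *Ager*-deleted mice. Without E5386 and E5642, the 2 controls with the muscle genes, 0 of the 37 genes passed the exact test, and 5 did not overlap between genotypes, *Pdgfra*, *Tspan2*, *Mog*, *Aspa* and *Apod*, where the share over all genes was 12.9%. The astrocyte, microglia, neuron and pericyte genes overlapped in their sums between genotypes. The microglia genes summed to 1250 to 2130 CPM in the *Ager*-deleted mice and 1599 to 1815 CPM in the controls.

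Other genes of the lineage, listed apart from the 37, were counted in the same way. In each of these 3 lists the genotypes did not overlap for 0 genes, beside 5.41% of the 37 and 3.88% of all genes. An unadjusted p under 0.05 in the exact test was found for 10.8% of the 37 and 4.26% of all genes. Of 47 further genes of mature oligodendrocytes, 0 passed edgeR's exact test and 0 had an unadjusted p under 0.05, with a median log2 fold change of 0.02. The 3 smallest p-values belonged to *Elovl7* (-0.18, p = 0.0785), *Gsn* (-0.17, p = 0.129) and *Cmtm5* (0.14, p = 0.188) in the exact test. Of 25 further genes of progenitors and differentiating cells, 0 passed the exact test and 1 had an unadjusted p under 0.05 (4.26% of all genes). That gene was *Zfp276*, with a log2 fold change of 0.23 ± 0.10 (SE) and p = 0.0492 in the exact test, ahead of *Zfp488* (0.20) and *Cacng4* (0.12). The median over these 25 genes was 0.04. Of 9 genes that mark oligodendrocytes in diseased tissue, 0 passed and 0 had an unadjusted p under 0.05 in the exact test. *Sgk3* (-0.37 ± 0.21 (SE), p = 0.0908 in the exact test), *Cdkn1a* (-0.23) and *Tnfrsf12a* (-0.15) were nearest to it, and the median log2 fold change of the 9 genes was 0.02. The most abundant of the 9, *Serpina3n*, *C4b* and *Sgk1*, are also expressed by astrocytes.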

How the data were processed

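Poly(A) RNA of lumbar spinal cord was sequenced from stranded TruSeq libraries. The deposited raw counts were made by the authors, per the labels and the study's methods with Trimmomatic 0.36, STAR 2.7.3a (mm10) and featureCounts (Subread 1.6.3). The authors also deposited log2 TMM-normalised CPM, which were used only as a check: their 19470 genes were those kept by filterByExpr with a minimum of 10 counts, and recomputed values with a prior count of 2 differed by at most 4.78e-06. The authors' strand setting is not given in the sources used here. Groups came from the genotype in the labels, and columns were matched by mouse ID. Whether the mice shared litters is not stated.

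All genes were fitted together in edgeR 4.0.16 (R 4.3.3) with TMM factors and estimateDisp without a design. The exact test was the main test, with Benjamini-Hochberg adjustment over all genes and a threshold of 0.05. The study's methods name this test but not how dispersions were estimated. The study reports 78 differentially expressed genes, whereas the main fit here gave 14. When common dispersions and then tagwise ones were estimated instead, 78 genes passed, the same number as in the study. Only these numbers of genes are compared here. Standard errors and 95% intervals are from the quasi-likelihood fit. Exact two-sided permutation tests used log2(CPM + 1) over 70 assignments. Alternatives were other scalings and filters, DESeq2 1.42.0, limma-voom (limma 3.58.1), other dispersions, covariates and leaving out mice. The scripts were tested on simulated data with 200 changed genes, each changed by more than any gene described here. There the exact test found 191 of them and made 39 false calls, and the quasi-likelihood test found 176 and made 6. In the exact test the share of false calls was thus above the threshold of 0.05. How often differences as small as those reported here would be found was not tested. Exon lengths, gene positions and overlaps are from GENCODE on GRCm38, and 19079 of 19470 symbols (98.0%) matched 1 gene. The floor of 3 counts covers counting error only, and the intervals of fold changes include the spread between mice.

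The 37 genes and all lists were chosen with earlier results of these data known. Values per mouse are given for genes that did not overlap between genotypes or had an unadjusted p under 0.05 in the exact test, and for the 2 genes with the highest CPM per kilobase in each role. In other oligodendrocyte lists the 3 genes with the smallest p are named, and in lists of other cell types the summed level and the most abundant genes. A few genes of these lists are not reported here. *Col1a1*, *Prx*, *Drp2*, *Pmp2* and a few further values were added after they were seen.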

Additional observations from a re-analysis of the deposited data

Results flagged for a closer look

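In 3 of 74 groups of 4 mice (37 genes in 2 genotypes), 1 mouse lay further from the rest than Dixon's 95% criterion allows. Chance alone would do so in about 1 in 20 groups, and 3 of 74 is 4.05%. *Olig1* was at 143.9 CPM in the control E5642 and at 178 to 179 CPM in the other 3 controls. *Mog* was at 149 CPM in the same mouse, against 185 to 188 CPM in the other 3. E5642 was the mouse with the lowest value of 14 of the 37 genes. *Plekhb1* was at 1099 CPM in the control E6732 and at 1234 to 1251 CPM in the other 3 controls.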

How the results depend on the processing

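No paired analysis was possible because the labels name mice by ID and give the genotypes no shared replicate numbers. Over 22 alternatives, 2 of them chosen after seeing the data (fibroblast and Schwann cell covariates), 0 of the 37 genes passed the threshold except when 1 mouse was left out, which gave 0 to 1 (*Aspa* without E5248, *Apod* without E5386). The other oligodendrocyte lists gave 0 in every alternative. The median log2 fold change of the 37 genes ran from -0.04 to 0.06 with a mouse left out and stayed within 0.00 to 0.03 otherwise. The count of non-overlapping genes was 1 with library size alone (*Pdgfra*, 3.84% of all genes), 5 without E5386 and E5642 (12.9%), and 2 to 4 with a mouse left out, the 4 being without E5248 (*Pdgfra*, *Olig1*, *Tspan2*, *Aspa*), where the share over all genes was 11.1%. That share was 5.02% to 11.1% over these omissions. The count at an unadjusted p under 0.05 was 4 to 5 where the share over all genes was 3.14% to 7.03%. With a mouse left out it was 1 to 5 where that share was 2.81% to 6.43%, with 2 without E5568 (3.23% of all genes) and 1 without E6578 (4.19%). *Pdgfra*, *Gpr17*, *Aspa* and *Apod* kept their sign in all alternatives. Of the 37 genes, 18 changed sign in none and 19 in some, and those 19 had log2 fold changes of at most 0.10 in size. Over all genes the count passing was 14, with 8 for a filter of 1 CPM in 4 mice, 25 in DESeq2, 78 with common and tagwise dispersions, 67 without E5386 and E5642, and 1 each in the quasi-likelihood test, in limma-voom and with a muscle, fibroblast or Schwann cell covariate. With a mouse left out it ran from 3 (E5231) to 98 (E6578), with 53 without E5248, 72 without E5386, 89 without E6732 and 8 without E5568 or E5642. *Ager* passed without E5386, with adjusted p = 0.0442 in the edgeR exact test. The causes were not tested. With 4 mice per genotype, the intervals given above limit how closely each difference is known.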
